A study of Mus musculus with 12 samples.

Results

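The account concerns 40 mouse genes of mitosis and the spindle, taken as a fixed list of symbols from Mki67 to Hmmr and matched by gene identifier. All 40 were found among the 19212 genes of the deposited table. The list held regulators of mitotic entry, checkpoint and kinetochore components, kinesin motors, cytokinesis factors and the ubiquitin machinery that ends mitosis, with the proliferation markers Mki67 and Top2a beside them.

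Mitosis begins when cyclin B and Cdk1 drive chromosome condensation and spindle assembly. Kinetochores on each centromere then capture microtubules, and the spindle checkpoint holds the anaphase-promoting complex (APC/C) inactive until every chromosome is attached. Many of these genes are transcribed together late in the cell cycle, from promoters bound by the DREAM and B-Myb/MuvB complexes and FoxM1, so their summed RNA is widely read as a sign of dividing cells in tumours.

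The samples were labelled as lung cancer tissue from mice given LLC cells, a mouse line derived from a Lewis lung carcinoma. In an orthotopic model, the NC tumours grew from LLC cells carrying a negative control lentivirus, and the OTUB1_KD tumours from LLC cells carrying a lentivirus that knocks down OTUB1, a deubiquitinase. In a second experiment, mice bearing LLC tumours received physiological saline (Blank) or SFD@M, a treatment that the labels describe no further. Each group had 3 libraries. Codes beginning with KD stand in the titles of the Blank samples, which were assigned by their title word and their saline treatment. The labels do not say how many animals, clones or knockdown sequences stood behind a group, nor whether its 3 libraries were from different mice. The p-values therefore measure only how far these libraries spread, and that spread may be technical.

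Libraries held 16062814 to 18028825 read counts. Otub1 itself, the knockdown target, stood at 76.2, 73.9 and 69.8 CPM (counts scaled to the library total) in NC replicates 1, 2 and 3, and at 58.6, 49.3 and 71.2 CPM in OTUB1_KD replicates 1, 2 and 3, so that OTUB1_KD replicate 3 lay inside the NC range. Its change was -0.36 on the log2 scale (SE 0.18, adjusted p = 0.112 by edgeR). In SFD@M against Blank, where no knockdown is labelled, Otub1 changed by -0.71 (SE 0.05, adjusted p = 5.80e-06 by edgeR). It stood at 45.5 to 48.1 CPM in SFD@M and 73.3 to 78.0 CPM in Blank. The libraries of NC differed from each other by 1.38 to 2.00 times the counting variance per gene, and those of Blank by 1.32 to 1.55 times, against 96.9 to 160.2 times among OTUB1_KD and 16.8 to 31.7 times among SFD@M. Markers of lung and host cells separated the groups as well. The summed level of 4 airway genes was 0.415 to 0.891 CPM in NC and 0.638 to 0.700 CPM in Blank, with Scgb3a2 at 0 counts in both, against 12251 to 31530.0 CPM in OTUB1_KD and 34254 to 37230 CPM in SFD@M. The 8 leukocyte genes summed to 4.11 to 4.81 CPM in NC and 1.63 to 2.20 CPM in Blank, with Cd3e and Ncr1 at 0, against 626 to 682 CPM in OTUB1_KD and 676 to 994 CPM in SFD@M. Alveolar, endothelial and fibroblast lists moved the same way, but not all from near 0. The 4 fibroblast genes summed to 212 to 222 CPM in NC and 194 to 202 CPM in Blank. They summed to 1919 to 2678 CPM in OTUB1_KD and 1234 to 1438 CPM in SFD@M. The 4 alveolar type 1 genes summed to 71.4 to 79.6 CPM in NC and 64.5 to 67.6 CPM in Blank. In OTUB1_KD they summed to 1006 to 3351 CPM and in SFD@M to 2462 to 2756 CPM. The 4 endothelial genes summed to 0.713 to 1.48 CPM in NC and 0.696 to 0.988 CPM in Blank, so that the defining markers of airway, endothelium and leukocytes were at or near 0 in both control groups, against the tissue their labels name. Which cells the control libraries held was not tested. The part of these other cells in the mitosis gene changes was not tested. In bulk tissue, fewer dividing cells and less mitotic RNA per cell cannot be told apart.

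The promoters are shown because most members searched held a control element that the list did not use. RefSeq promoter windows of the build GRCm38.p6, from 250 bases before to 50 bases after a gene's start, were present for 34 of the 40 genes. The cell cycle homology region, searched as TTTGAA or TTCGAA on both strands, lay in the windows of 25 of these genes (73.5%), against 21.7% of the 27025 genes in the promoter table. CCAAT, the binding motif of NF-Y and also searched on both strands, lay in 25 (73.5%) against 41.1%. Both stood in 22 members (64.7%) against 9.65% of all genes. The member windows had a median GC content of 59.0% and all windows 52.7%, and a match is a description of letters, not of binding. Of the members with a fixed place among the genes described in full, the 5 with the first motif nearest the start are printed from 125 bases before to 25 bases after it. Capitals mark both motifs, with TTCAAA and ATTGG their letters on the other strand.
Cdk1: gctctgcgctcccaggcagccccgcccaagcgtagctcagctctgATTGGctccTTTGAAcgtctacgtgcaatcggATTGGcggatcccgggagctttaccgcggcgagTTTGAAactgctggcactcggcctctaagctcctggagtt
Kif11: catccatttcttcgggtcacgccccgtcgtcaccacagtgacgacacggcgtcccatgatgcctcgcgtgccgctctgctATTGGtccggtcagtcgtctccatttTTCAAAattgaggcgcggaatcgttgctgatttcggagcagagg
Cenpa: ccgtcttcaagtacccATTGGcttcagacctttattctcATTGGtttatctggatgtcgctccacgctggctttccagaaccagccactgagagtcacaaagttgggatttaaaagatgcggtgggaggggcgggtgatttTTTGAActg
Top2a: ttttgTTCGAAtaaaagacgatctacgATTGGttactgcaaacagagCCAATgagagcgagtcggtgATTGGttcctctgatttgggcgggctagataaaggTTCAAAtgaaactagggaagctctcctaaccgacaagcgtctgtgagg
Ube2c: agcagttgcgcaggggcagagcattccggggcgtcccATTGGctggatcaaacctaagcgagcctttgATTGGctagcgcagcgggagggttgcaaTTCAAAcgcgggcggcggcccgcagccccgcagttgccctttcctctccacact
The Cdk1 window is chr10:69352888-69353037, minus strand, the Kif11 window chr19:37376257-37376406, plus strand, and the Cenpa window chr5:30666761-30666910, plus strand. The Top2a window is chr11:99024165-99024314, minus strand, and the Ube2c window chr2:164769804-164769953, plus strand. Top2a carried CCAAT at bases -98, -78 and -58 and the first motif at -120 and -23, counted from the start. In Cenpa the first motif lay at base 17 after the start.

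Bub3 and Pttg1 were added after their values had been seen, because their RNA did not fall with the others in OTUB1_KD.
Bub3: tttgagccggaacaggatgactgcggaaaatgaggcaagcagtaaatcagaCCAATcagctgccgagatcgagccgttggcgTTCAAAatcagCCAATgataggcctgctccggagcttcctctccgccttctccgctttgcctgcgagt
Pttg1: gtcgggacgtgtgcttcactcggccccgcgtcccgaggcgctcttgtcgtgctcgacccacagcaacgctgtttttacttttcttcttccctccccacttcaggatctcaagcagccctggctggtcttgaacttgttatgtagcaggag
The Bub3 window is chr7:131560245-131560394, plus strand, and the Pttg1 window chr11:43425957-43426106, minus strand. Bub3 held the first motif at base -43 and CCAAT at -74 and -32. The Pttg1 window held neither motif, and neither did those of Birc5, Kif18a, Mad2l1, Nuf2 and Nusap1, all of which fell in both experiments. Cdc20, whose fall also missed the test threshold in OTUB1_KD, held both motifs in its window, which is not printed.

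In the control libraries the mitosis genes were abundant and even. By TPM, which corrects for transcript length, mean levels in NC ran from 17.5 for Cdc25c, the phosphatase that activates Cdk1, to 382 for Mad2l1, a checkpoint protein. Top2a, the topoisomerase that untangles chromosomes, followed at 379 TPM. The median coefficient of variation of CPM between libraries was 2.11% in NC and 1.83% in Blank, and every member lay between 91.0% and 108.6% of its control mean in each control library. In OTUB1_KD and SFD@M Pttg1, which encodes securin, had the highest TPM of the members, 96.5 ± 27.5 and 115 ± 12.6 (SD, n = 3). The median coefficient of variation was 73.7% in OTUB1_KD and 53.2% in SFD@M.

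OTUB1_KD libraries held less RNA of nearly every mitosis gene than NC libraries. In edgeR's quasi-likelihood test over 14786 genes, 37 of the 40 fell at an adjusted p below 0.05 and none rose, where 25.8% of all genes tested fell and 39.9% rose. The median change of the members was -2.17 on the log2 scale, with a range from -2.85 for Ect2 to 0.04 for Pttg1, and the median of all genes was 0.16. All 3 OTUB1_KD libraries lay below all 3 NC libraries for 38 members, which held for 32.6% of all genes. The members that missed the threshold were Bub3, Pttg1 and Cdc20. Leaving out OTUB1_KD replicate 3 reduced the falling members to 27. Over all genes, 7993 to 11142 were called in either direction without single libraries, against 9723 with all libraries.

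SFD@M libraries held less mitosis RNA than Blank libraries. Over 14824 genes, 39 members fell and 1 rose, where 38.7% of all genes fell and 49.5% rose. The median change of the members was -5.22 against 0.23 for all genes, and the range ran from -6.35 for Ccnb1 to 0.24 for Pttg1. SFD@M and Blank did not overlap for 39 members, with SFD@M lower, a pattern found in 38.9% of all genes, and for Pttg1 with SFD@M higher, found in 51.3%. The 39 falls passed the test without any single library. Over all genes, 12775 to 13323 were then called in either direction, against 13062 with all libraries.

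**Figure D1:**
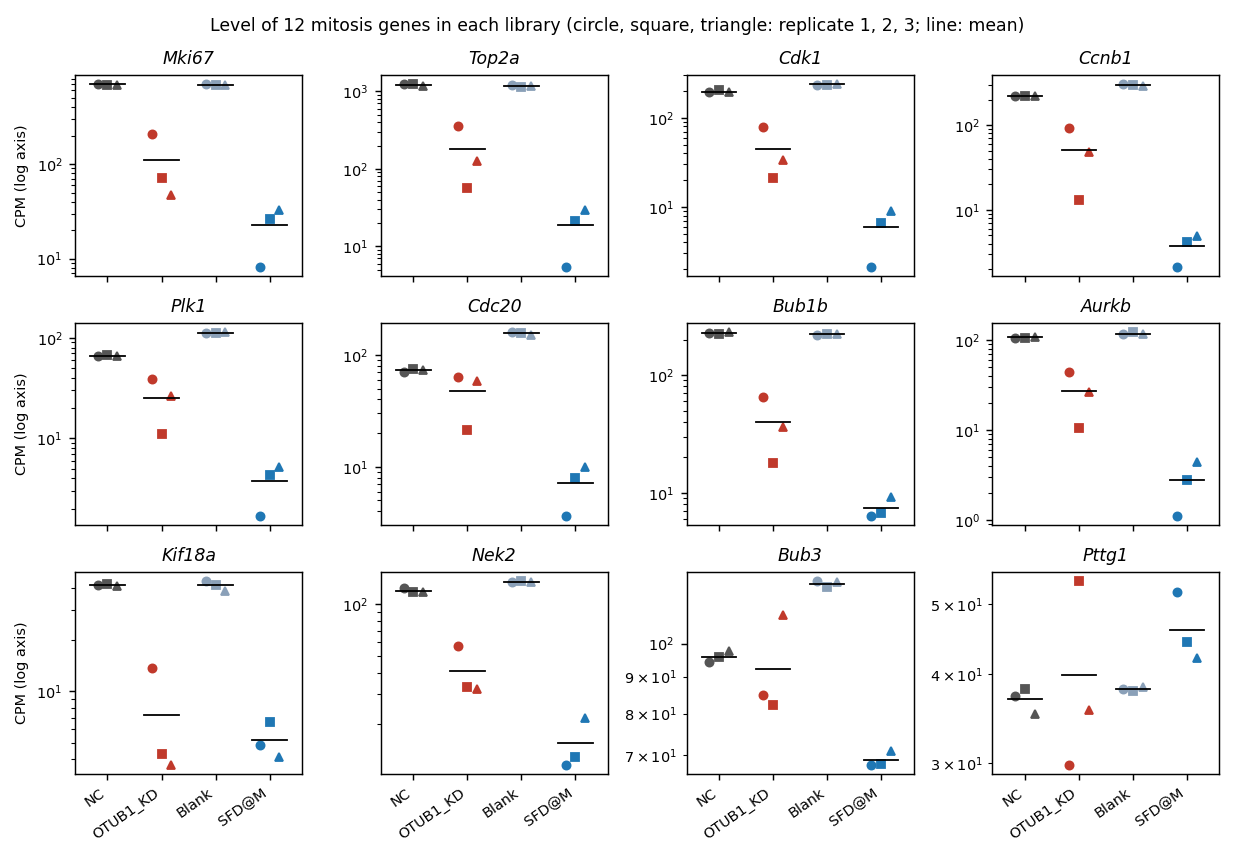
Level of 12 mitosis genes in each of the 12 libraries, in CPM on log axes that differ between panels, with circle, square and triangle for replicates 1, 2 and 3 and a line at the group mean (n = 3). The control points lie nearly on their means, and OTUB1_KD spreads with replicate 1 highest for most genes. SFD@M lies lowest except for Kif18a, where it overlaps OTUB1_KD, and Pttg1. The latter stood at 42.0 to 52.0 CPM in SFD@M against 37.9 to 38.3 CPM in Blank.

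The kinase and cyclins of mitotic entry fell in both experiments. Cdk1, the entry kinase, stood at 197 ± 6.47 CPM (SD, n = 3) in NC and at 78.4, 21.0 and 33.6 CPM in OTUB1_KD replicates 1, 2 and 3. It stood at 237 ± 3.80 CPM in Blank and at 2.11, 6.53 and 9.07 CPM in SFD@M. Neither pair of groups overlapped, and the log2 changes were -2.22 (SE 0.46, adjusted p = 0.00526 by edgeR) and -5.36 (SE 0.36, adjusted p = 3.61e-06). Its partner Ccnb1, cyclin B1, went from 222 ± 0.797 CPM in NC to 92.1, 13.1 and 47.9 CPM, and from 299 ± 7.97 CPM in Blank to 2.11, 4.18 and 4.95 CPM. The fall of Ccnb1 in SFD@M, by 6.35 on the log2 scale (SE 0.22, adjusted p = 1.13e-07 by edgeR), was the largest among the members in that comparison. Cyclins Ccnb2 and Ccna2 fell by 2.41 and 2.16 in OTUB1_KD and by 5.19 and 5.52 in SFD@M.

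Cdc25c had the lowest counts of the members in SFD@M. It stood at 18.1 ± 1.60 CPM in NC and at 8.86, 2.02 and 3.05 CPM in OTUB1_KD, and at 24.5 ± 0.549 CPM in Blank and 0.117, 0.647 and 0.412 CPM in SFD@M, where those values rest on 2, 11 and 7 counts. The groups did not overlap, and the falls passed the test in both experiments (adjusted p = 0.0128 and 5.39e-07 by edgeR). Plk1, the polo-like kinase that acts from entry to cytokinesis, stood at 66.5 ± 0.855 CPM in NC and at 38.9, 11.0 and 26.2 CPM in OTUB1_KD. In SFD@M it stood at 1.70, 4.35 and 5.24 CPM against 112 ± 0.797 CPM in Blank. Its log2 change of -1.45 in OTUB1_KD (SE 0.42, adjusted p = 0.0189) was the smallest of the 37 falls, and that in SFD@M was -4.93 (SE 0.27, adjusted p = 1.33e-06). The fall of Plk1 in OTUB1_KD lost its call without replicate 3 of that group (adjusted p = 0.0626), as did Ccnb1 (0.0720) and Cdc25c (0.0546).

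Foxm1, the transcription factor that activates late cell cycle genes, fell in both experiments. It stood at 130.2 ± 1.32 CPM in NC and at 68.5, 15.5 and 46.1 CPM in OTUB1_KD, a change of -1.65 (SE 0.48, adjusted p = 0.0203 by edgeR). In SFD@M it stood at 2.35, 4.94 and 7.54 CPM against 161 ± 5.49 CPM in Blank, a change of -5.06 (SE 0.29, adjusted p = 1.59e-06). Groups did not overlap in either experiment, and the OTUB1_KD call was lost without replicate 3 (adjusted p = 0.0662).

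Checkpoint genes fell in both experiments except Bub3, which fell in SFD@M and did not pass the test in OTUB1_KD. Bub1b, which encodes the checkpoint pseudokinase BubR1, stood at 226 ± 3.66 CPM in NC and at 65.1, 17.9 and 35.9 CPM in OTUB1_KD. It stood at 222 ± 2.02 CPM in Blank and at 6.40, 6.71 and 9.25 CPM in SFD@M. Both sets of libraries lay below their controls, with changes of -2.58 (SE 0.45, adjusted p = 0.00231 by edgeR) and -4.93 (SE 0.12, adjusted p = 2.78e-08). The checkpoint kinases Bub1 and Ttk and the APC/C inhibitor Mad2l1 fell by 2.65, 2.30 and 2.31 in OTUB1_KD and by 5.41, 4.98 and 5.40 in SFD@M. Bub3, the adaptor that carries Bub1 and BubR1 to kinetochores, stood at 95.9 ± 1.56 CPM in NC and at 85.0, 82.1 and 109.7 CPM in OTUB1_KD, so the groups overlapped. Its change there was -0.12 (95% confidence interval -0.51 to 0.27, adjusted p = 0.544), and without OTUB1_KD replicate 3 it was -0.29 (adjusted p = 0.0313). In SFD@M it stood at 68.0, 68.1 and 71.0 CPM against 121 ± 1.22 CPM in Blank, a fall of 0.85 on the log2 scale (SE 0.05, adjusted p = 8.69e-07).

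All kinetochore and centromere members fell in both experiments. Cenpa, the histone variant that marks centromeres, stood at 110.1 ± 0.375 CPM in NC and at 47.6, 14.3 and 26.0 CPM in OTUB1_KD. It stood at 147 ± 0.642 CPM in Blank and at 4.05, 7.41 and 6.95 CPM in SFD@M. The groups did not overlap, and the changes were -1.97 (SE 0.41, adjusted p = 0.00497 by edgeR) and -4.61 (SE 0.18, adjusted p = 2.02e-07). Cenpe, the kinetochore kinesin, fell from 202 ± 5.04 CPM in NC to 87.1, 12.1 and 16.3 CPM, and from 269 ± 6.83 CPM in Blank to 2.23, 4.77 and 4.65 CPM. Its changes were -2.46 (SE 0.74, adjusted p = 0.0224) and -6.15 (SE 0.21, adjusted p = 1.09e-07), and the first lost its call without OTUB1_KD replicate 2 (adjusted p = 0.0511) or 3 (0.0781). The Ndc80 complex genes Ndc80, Nuf2 and Spc25 fell by 2.48, 2.16 and 2.31 in OTUB1_KD, and by 5.38, 5.59 and 4.12 in SFD@M. Cenpf, which coats the outer kinetochore, fell by 2.75 and 5.99.

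Spindle motors fell as a group but not evenly. Kif11, the kinesin that pushes spindle poles apart, stood at 289.6 ± 2.99 CPM in NC and at 89.8, 20.9 and 22.0 CPM in OTUB1_KD. In SFD@M it stood at 1.53, 7.59 and 10.4 CPM against 286 ± 8.32 CPM in Blank. Its changes were -2.78 (SE 0.59, adjusted p = 0.00577 by edgeR) and -5.49 (SE 0.45, adjusted p = 1.21e-05). Kif18a, a kinesin that shortens kinetochore microtubules, stood at 41.7 ± 0.739 CPM in NC and at 13.6, 4.28 and 3.72 CPM in OTUB1_KD. It stood at 41.6 ± 2.63 CPM in Blank and at 4.81, 6.59 and 4.12 CPM in SFD@M, so that its levels in the SFD@M libraries lay within the span of those in OTUB1_KD. The change of Kif18a was -2.60 (SE 0.50, adjusted p = 0.00359) and -3.04 (SE 0.16, adjusted p = 8.20e-07). Kif23, Kif20a, Kif2c and Kif4 fell by 1.70 to 2.39 in OTUB1_KD and by 4.70 to 5.86 in SFD@M. Of the genes that build and focus the spindle, Aurka, Tpx2, Hmmr and Nusap1 fell by 1.87 to 2.46 and by 4.29 to 5.41, and the centrosome kinase Nek2 fell by 1.63 and 3.16.

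The passenger complex, which corrects attachments and guides cytokinesis, fell with its kinase. Aurkb, that kinase, stood at 106 ± 1.99 CPM in NC and at 44.4, 10.6 and 26.2 CPM in OTUB1_KD. It stood at 117 ± 3.44 CPM in Blank and at 1.12, 2.77 and 4.42 CPM in SFD@M. Birc5, which encodes survivin, the complex's targeting subunit, stood at 137 ± 2.31 CPM in NC and 63.5, 14.0 and 30.0 CPM in OTUB1_KD, and at 149.9 ± 2.57 CPM in Blank and 2.00, 4.12 and 5.95 CPM in SFD@M. Groups did not overlap for either gene in either experiment. Aurkb changed by -2.04 (SE 0.47, adjusted p = 0.00776 by edgeR) and -5.44 (SE 0.30, adjusted p = 1.31e-06), and Birc5 by -2.01 (SE 0.50, adjusted p = 0.0107) and -5.25 (SE 0.26, adjusted p = 7.61e-07). The OTUB1_KD call of Birc5 was lost without replicate 3 of that group (adjusted p = 0.0527). Ect2, the exchange factor that turns on RhoA at the cleavage furrow, went from 268 ± 6.34 CPM in NC to 80.7, 16.3 and 20.2 CPM. In SFD@M it stood at 3.35, 7.41 and 8.95 CPM against 341 ± 1.00 CPM in Blank. Its fall in OTUB1_KD, by 2.85 (SE 0.62, adjusted p = 0.00626), was the largest of the 40, and in SFD@M it fell by 5.73 (SE 0.28, adjusted p = 6.14e-07). The furrow and midzone genes Anln and Prc1 fell by 2.21 and 1.77 in OTUB1_KD and by 4.75 and 4.06 in SFD@M.

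Of the genes that end mitosis, Ube2c and Espl1 fell in both experiments and Cdc20 in SFD@M. Ube2c, the ubiquitin-conjugating enzyme of the APC/C, stood at 112 ± 9.71 CPM in NC and at 64.5, 18.7 and 39.5 CPM in OTUB1_KD. It stood at 158 ± 3.04 CPM in Blank and at 1.94, 7.36 and 8.77 CPM in SFD@M, and neither pair overlapped. Its changes were -1.51 (SE 0.41, adjusted p = 0.0156 by edgeR) and -4.75 (SE 0.37, adjusted p = 8.80e-06), and the first lost its call without OTUB1_KD replicate 3 (adjusted p = 0.0607). Cdc20, the activator of the APC/C, stood at 70.7, 74.5 and 73.4 CPM in NC replicates 1, 2 and 3 and at 63.5, 21.2 and 58.5 CPM in OTUB1_KD. All 3 lay below NC, but replicates 1 and 3 only slightly, and the change of -0.67 did not pass (95% confidence interval -1.59 to 0.25, adjusted p = 0.163). Without OTUB1_KD replicate 2 it was -0.32 with an adjusted p of 0.0485. In SFD@M Cdc20 stood at 3.64, 8.00 and 9.89 CPM against 156 ± 3.92 CPM in Blank, a fall of 4.47 (SE 0.27, adjusted p = 2.17e-06). Espl1, the separase that cuts cohesin, fell by 2.10 and 4.88.

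Pttg1, the securin that inhibits separase, did not follow its partners. It stood at 37.3, 38.1 and 35.2 CPM in NC and at 29.9, 53.8 and 35.7 CPM in OTUB1_KD replicates 1, 2 and 3, with overlapping groups and a change of 0.04 (95% confidence interval -0.50 to 0.57, adjusted p = 0.886 by edgeR). In Blank it stood at 38.1, 37.9 and 38.3 CPM and in SFD@M at 52.0, 44.2 and 42.0 CPM. The groups did not overlap, and the rise of 0.24 (SE 0.08, adjusted p = 0.0267) was the only one among the members. That call was lost without any 1 of the Blank libraries (adjusted p 0.0792 to 0.0851), and on log2(TPM + 1) the value turned to -0.19 (adjusted p = 0.0542 by limma). Its transcripts also shifted in proportion, a pattern chosen after the values had been seen and not tested. The transcript NM_013917 took 5.58% to 7.31% of the gene's counts in the 6 control libraries and 17.3% to 20.3% in the other 6, with no overlap.

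Mki67, which encodes the proliferation antigen Ki-67, stood at 697 ± 9.02 CPM in NC and at 208, 72.1 and 47.7 CPM in OTUB1_KD. It stood at 688 ± 8.54 CPM in Blank and at 8.16, 26.5 and 32.9 CPM in SFD@M. Top2a stood at 1225 ± 39.7 CPM in NC and at 359, 56.5 and 127 CPM in OTUB1_KD, and at 1177 ± 20.7 CPM in Blank and 5.40, 21.5 and 29.3 CPM in SFD@M. Both genes lay below their controls in every library. Mki67 changed by -2.75 (SE 0.54, adjusted p = 0.00413 by edgeR) and -4.97 (SE 0.45, adjusted p = 2.08e-05), and Top2a by -2.83 (SE 0.64, adjusted p = 0.00732) and -6.01 (SE 0.54, adjusted p = 1.96e-05).

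The question of 1 common dilution was first put to each library. If the falls were a single factor per library, every member would stand at the same percent of its control mean. Read as dilution, this and the common scale fit below assume that the diluting tissue held none of the members' RNA. That assumption was not tested. The median percent over the 40 genes was 42.4%, 10.2% and 16.5% in OTUB1_KD replicates 1, 2 and 3, and 1.18%, 3.00% and 4.13% in SFD@M replicates 1, 2 and 3. Within 1.5-fold of that median lay 37, 23 and 22 members in OTUB1_KD and 17, 26 and 24 in SFD@M, against all 40 in each control library. Each control library was part of its own control mean, and median member counts in SFD@M were only 39.5, 109 and 132.5. The 95% counting interval reached the median for 10, 10 and 5 members in OTUB1_KD and 16, 16 and 19 in SFD@M. In replicates 1, 2 and 3 it did for 35, 37 and 39 in NC and 36, 37 and 38 in Blank. The libraries also came in the same order for most members: OTUB1_KD replicate 1, then 3, then 2 in 33 of them, and SFD@M replicate 3, then 2, then 1 in 35. How many of all genes had these orders was not counted. Mki67, Kif18a, Spc25, Nusap1 and Nek2 had OTUB1_KD replicate 3 lowest. In that library percents ran from 6.84% for Mki67 to 80.3% for Cdc20, 96.7% for Pttg1 and 114% for Bub3.

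**Figure D2:**
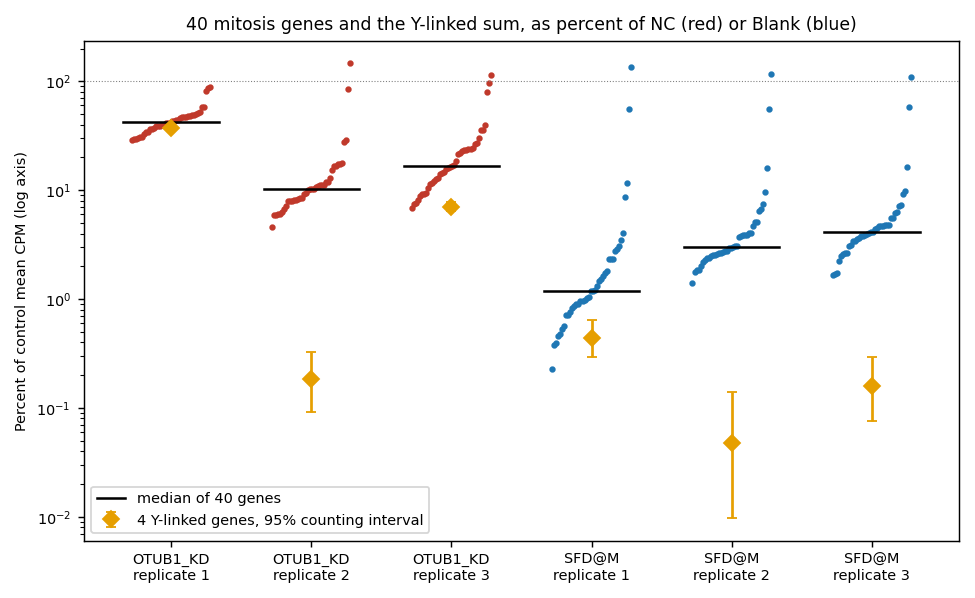
Each point is 1 of the 40 mitosis genes in 1 library, as a percent of the gene's mean CPM in NC (red) or Blank (blue) on a log axis; bars mark the median and diamonds the summed 4 Y-linked genes with their 95% counting interval. The mitosis medians run from 42.4% to 1.18%, while the Y-linked sum drops to 0.184% in OTUB1_KD replicate 2 and 0.0475% in SFD@M replicate 2.

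Y-linked genes stood below their controls in another proportion than the mitosis genes, except in OTUB1_KD replicate 1, where they were close. None of the 4 passed the adjusted threshold of edgeR in OTUB1_KD, where 2 had an unadjusted p below 0.05 and the median change was -2.83, and all 4 fell in SFD@M, with a median of -10.04. The summed CPM of Ddx3y, Eif2s3y, Kdm5d and Uty, which are transcribed only in cells with a Y chromosome, was 36.9%, 0.184% and 7.08% of NC in OTUB1_KD replicates 1, 2 and 3. It was 0.442%, 0.0475% and 0.158% of Blank in SFD@M, resting on 28, 3 and 10 counts. Its order in SFD@M, with replicate 1 highest, was not that of the mitosis genes, whose median was lowest in replicate 1. In OTUB1_KD replicate 1, 29 members stood above the Y-linked percent, and in the other 5 libraries 40, 39, 37, 40 and 40 did. The summed mitosis genes stood at 2973, 813 and 1302 CPM in OTUB1_KD replicates 1, 2 and 3. The Y-linked percent of the NC sum would give 2800, 14.0 and 537 CPM there. In SFD@M the summed mitosis genes stood at 242, 378 and 448 CPM, where the Y-linked percent of the Blank sum would give 38.0, 4.08 and 13.6 CPM. Bub3 and Pttg1 made up 49.6%, 29.7% and 25.2% of those SFD@M sums, and the other 38 members summed to 122, 265 and 335 CPM. Which cells held the remaining mitosis RNA, and whether the Y-linked genes track the tumour cells, was not tested.

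A fit on a common scale, in which each library was scaled to its summed mitosis gene count, tested each gene for a departure from 1 shared factor. In OTUB1_KD against NC, Pttg1, Bub3 and Cdc20 departed, all higher, by 2.83 (SE 0.64), 2.50 (SE 0.62) and 1.68 (SE 0.61) on the log2 scale (adjusted p = 2.15e-05, 0.000122 and 0.00771 by edgeR). On this scale 87.4% of all genes were higher and 0.399% lower. The same 3 genes departed when libraries were scaled to the geometric mean of the members (where 85.2% of all genes were higher and 0.433% lower) or by TMM factors shifted by the members' median change (90.4% and 0.528%). For the other 37 the departures ran from -0.76 to 0.83 with SEs of 0.59 to 0.79. Each of their 95% confidence intervals, such as -1.91 to 0.41 for Top2a and -1.16 to 1.17 for Cdk1, reached beyond 1 in at least 1 direction. The fit set these SEs mostly by a spread shared over all genes tested, here and in SFD@M against Blank. The SE of Bub3 was 0.62 here and 0.17 with shifted TMM factors, and that of Top2a 0.59 and 0.60. The 37 genes not called therefore cannot be said to share 1 factor. Cdc20 lost its call without any 1 NC library (adjusted p 0.0605 to 0.0666) and without OTUB1_KD replicate 3 (0.0930). Without OTUB1_KD replicate 1, the library with most mitosis RNA, 15 members departed, 7 lower and 8 higher, and without replicate 2, 6 did, all higher. The share of all genes called in these reduced fits was not recorded. Among those 15 were Top2a (-0.95), Ect2 (-0.99), Cenpe (-0.95) and Kif11 (-0.84) on the low side and Plk1 (0.94) and Ube2c (0.86) on the high side.

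In SFD@M against Blank, 23 members departed from the common scale, 19 lower and 4 higher, where 1.13% of all genes were lower and 97.0% higher. The 4 higher genes were Pttg1 (5.00, SE 0.38), Bub3 (3.87, SE 0.36), Kif18a (1.67, SE 0.38) and Nek2 (1.47, SE 0.34), and all 4 were called on each of the 3 scales. Nek2 stood at 11.7, 12.9 and 21.9 CPM in SFD@M against 135 ± 0.907 CPM in Blank. Kif18a kept 11.6%, 15.8% and 9.90% of its Blank level and Nek2 8.63%, 9.56% and 16.2%, above the library medians in every case. The lower count depended on the scale: it was 19 with the sum, of which Bub3 and Pttg1 made up 25.2% to 49.6% in SFD@M, 2 with the geometric mean and 3 with shifted TMM factors. With the geometric mean 4 members were higher, where 97.0% of all genes were higher and 0.519% lower, and with shifted TMM factors 10 were, where 97.8% were higher and 0.654% lower. With the sum, 14 or 15 members departed without any 1 Blank library, 10 or 11 of them lower, and 30 without SFD@M replicate 1, of them 8 higher. For these reduced fits, too, the share of all genes was not recorded. Ccnb1 alone was lower on all 3 scales (-1.75, SE 0.35, adjusted p = 7.75e-07 by edgeR on the sum). Cenpe, Mad2l1 and Top2a were lower on 2. Since 87.8% and 98.1% of all genes were called on the summed scale in the 2 comparisons, adjustment removed few genes. Calls reached unadjusted p-values of 0.0439 and 0.0486, thresholds that 1.75 and 1.94 of 40 genes with no departure would be expected to pass.

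**Figure D3:**
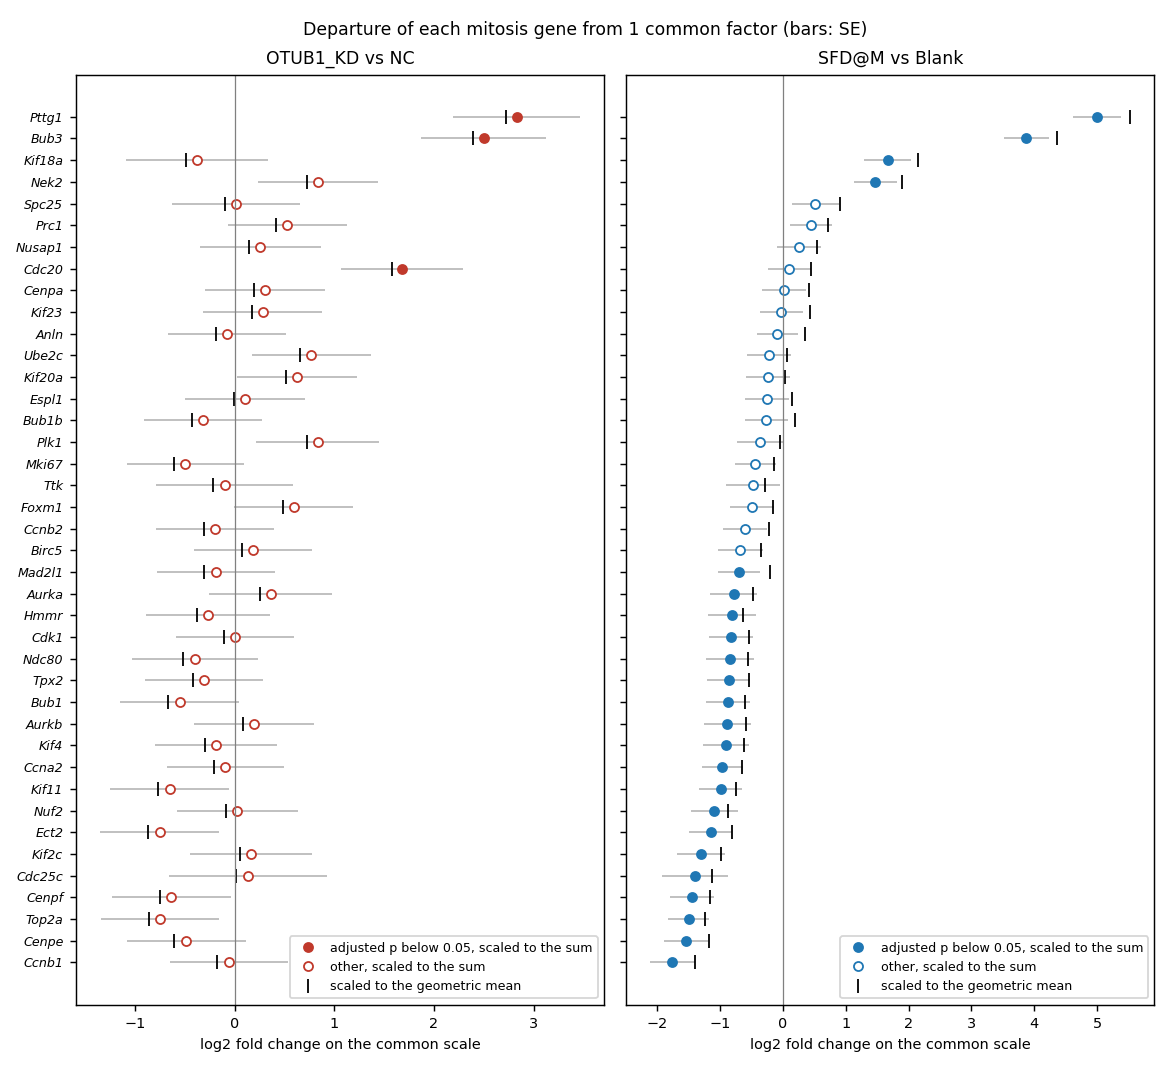
Log2 departure of each of the 40 genes from the shared factor in OTUB1_KD against NC (left) and SFD@M against Blank (right), with circles and SE bars for libraries scaled to the summed members and ticks for the geometric mean. Pttg1 and Bub3 lie far to the right in both panels, Cdc20 in the left only, and Kif18a and Nek2 in the right only, while Ccnb1 lies lowest on the right at -1.75.

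The falls differed in size between the experiments by an interaction fit. In 1 fit of all 12 libraries, the OTUB1_KD change exceeded that of SFD@M, being less negative, for 37 of the 40 members, where 10.7% of all 15304 genes tested had a difference in that direction and 12.4% in the other. The members' median difference was 2.91. The smallest p-values belonged to Cdc20 (3.78, SE 0.56, adjusted p = 0.00194 by edgeR), Plk1 (3.46, SE 0.60, adjusted p = 0.00387) and Ccnb1 (4.15, SE 0.76, adjusted p = 0.00492). The contrast also holds the difference between Blank and NC, which fitted apart was 1.09, 0.75 and 0.43 for these genes. SFD@M directly against OTUB1_KD gave them -2.74, -2.75 and -3.77, where the members' median was -2.75. Mki67 (2.20, adjusted p = 0.0545), Kif18a (0.41, 95% confidence interval -0.80 to 1.63) and Pttg1 (-0.23, 95% confidence interval -0.75 to 0.29) were not called. The count was 28 to 39 without single libraries, and the share of all genes in those fits was not recorded. The fit gave each gene 1 spread for all 4 groups. Their median coefficients of variation were 2.11% in NC, 1.83% in Blank, 73.7% in OTUB1_KD and 53.2% in SFD@M. The p-values therefore do not measure the spread of OTUB1_KD and SFD@M alone. With SFD@M set directly against OTUB1_KD, edgeR called none of the members.

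The 2 control groups differed for these genes about as often as for all genes, but mostly in 1 direction. In either direction 30 members (75%) were called, against 74.3% of all genes tested. Of the members, 29 were higher in Blank than in NC and 1 was lower, where 37.0% of the 12087 genes tested were higher and 37.2% lower. The members' median difference was 0.23 on the log2 scale, that of all genes 0.00. The largest were those of Cdc20 (1.09, SE 0.03), Plk1 (0.75, SE 0.04), Aurka, the spindle pole kinase (0.64, SE 0.03), Kif20a, the cytokinesis kinesin (0.55, SE 0.03), and Nuf2 (0.51, SE 0.03), all called by edgeR. For Cdc20 the libraries stood at 70.7 to 74.5 CPM in NC and 151 to 159 CPM in Blank, with no overlap. Mki67 (-0.02), Kif11 (-0.02), Bub1b (-0.03), Ttk (0.00) and Kif18a (0.00) were not called. The single lower call, Top2a at -0.06 (adjusted p = 0.0193), was lost without NC replicate 1 or 2 or Blank replicate 2 or 3. The lentivirus, the saline and the experiment itself cannot be told apart here.

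**Figure D4:**
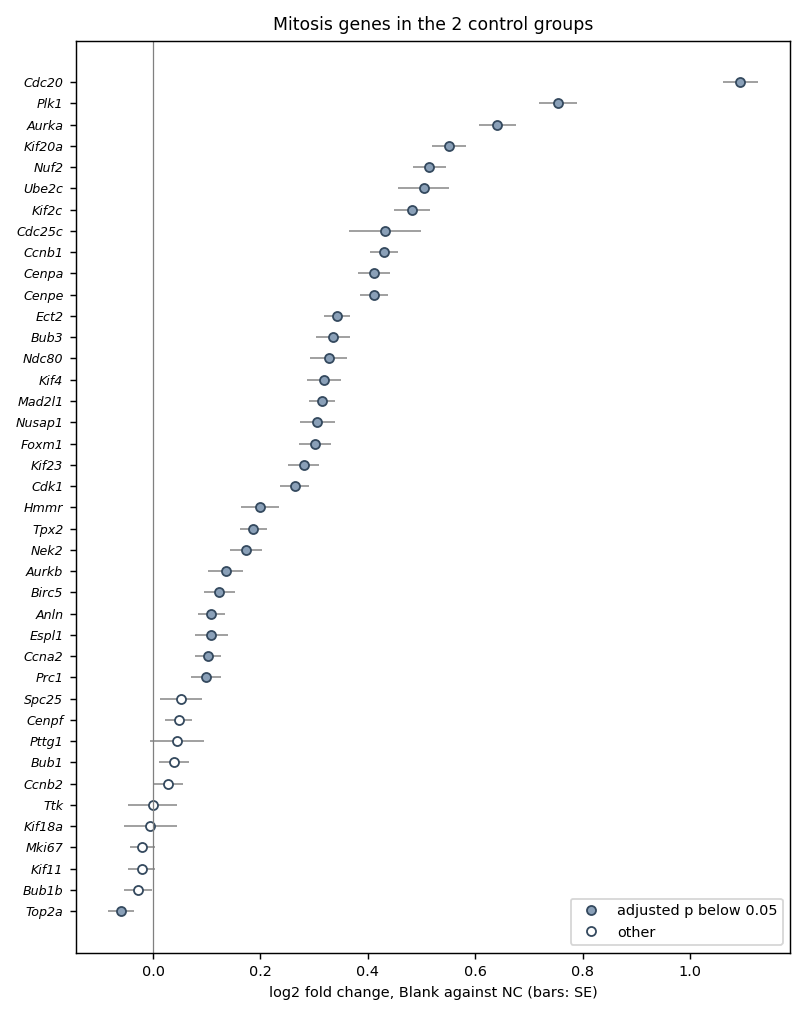
Log2 difference of each mitosis gene in Blank against NC, with SE bars and filled circles for an adjusted p below 0.05. Cdc20 stands apart at 1.09, Plk1 follows at 0.75, and Mki67, Kif11, Bub1b and Top2a lie just below 0.

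SFD@M and OTUB1_KD libraries were set beside each other with the same limit, since they came from separate experiments. The members' median difference was -2.75, with a range from -3.77 to 0.23, but none passed the adjusted threshold in edgeR, where 2 of the 14914 genes tested (0.0134%) did. At an unadjusted p below 0.05, 37 members and 12.0% of all genes were lower in SFD@M. DESeq2 called 36 members and 6.01% of all genes lower. Without OTUB1_KD replicate 2, edgeR called 29 members and 8.80% of all genes lower. All 3 SFD@M libraries lay below all 3 OTUB1_KD libraries for 38 members, against 16.7% of all genes.

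Other genes of cell division, 105 in all, had the same direction for the most part and smaller medians. In OTUB1_KD 84 fell and 1 rose, with a median change of -1.50, where 25.8% of all genes fell. In SFD@M 95 fell and 4 rose, with a median of -2.70, where 38.7% of all genes fell. The passenger complex and cytokinesis genes had medians of -2.04 and -5.07, with 8 of 9 lower in each. Condensin genes, which compact chromosomes, all fell (8 of 8 in each, medians -2.32 and -3.63). Inner kinetochore genes fell in 15 and 16 of 16 (medians -1.94 and -3.76), outer kinetochore genes in 10 and 10 of 11 (-1.35 and -3.98), and spindle and centrosome genes in 12 and 13 of 13 (-1.69 and -3.79). The APC/C list held its subunits and also Fzr1, Ube2s and Fbxo5, which are not subunits. It had the smallest medians of these lists, -0.36 and -0.85, with 7 and 14 of 17 lower. Cohesin genes fell in 12 of 13 in each (-1.33 and -1.49), and entry regulators in 5 and 6 of 6 (-1.38 and -2.68). Of 12 transcription regulators of the cell cycle, 7 fell and 1 rose in OTUB1_KD (median -1.21), and 8 fell and 3 rose in SFD@M (median -2.15).

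The deepest falls outside the members were in Esco2, the cohesin acetyltransferase (-3.01 in OTUB1_KD, from 55.1 ± 1.82 to 7.18 ± 4.79 CPM), and in the inner kinetochore genes Cenph (-2.95) and Cenpp (-2.81). In SFD@M they were in Aspm, a spindle pole protein (-5.92, from 219 ± 6.00 to 3.69 ± 2.27 CPM), the cohesin protector Sgo1 (-5.90) and Cenph (-5.90). All of these passed the test. E2f2, a transcription factor of the cell cycle, rose in both experiments, by 0.79 (SE 0.14, adjusted p = 0.00262 by edgeR) and 0.93 (SE 0.08, adjusted p = 9.65e-06). It stood at 29.6, 34.6 and 32.1 CPM in OTUB1_KD against 17.7 ± 0.292 CPM in NC, and at 36.4, 37.0 and 39.3 CPM in SFD@M against 19.3 ± 1.17 CPM in Blank. Rhoa (0.27), Lin37 (0.76) and Lin52 (0.49) rose in SFD@M. Lin37 and Lin52 encode subunits of the MuvB core, and their changes in OTUB1_KD, 0.75 and -0.07, did not pass. E2f2 is also known for a role in red cell maturation. Erythroid genes summed to 4888 to 9665 CPM in OTUB1_KD and to 9.36 to 169 CPM in SFD@M, against 0.174 to 0.560 CPM in the control groups, and their part in the level of E2f2 was not tested.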

How the data were processed

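RNA from 12 mouse lung cancer samples was enriched with oligo(dT) beads and sequenced, per the labels' protocols. The authors deposited 1 table of 70659 transcripts with expected counts (estimated reads per transcript, not always whole), TPM, FPKM and normalized counts per library, per the file headers. TPM values were scaled by transcript length by the authors, per the file headers, and served for comparing levels between genes and in an alternative test. FPKM and normalized counts were not used. Among tools, Bowtie2, DESeq2 1.4.5 and RSEM 1.3.1, and as a build GRCm39, appear without their roles in the submitters' processing notes. Strand handling is not given in the sources used here. Reads of a gene and of its antisense partner therefore cannot be separated.

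Expected counts were summed per gene and rounded, giving 19212 genes. Symbols came from a RefSeq table of GRCm38.p6 for 19155 genes. The other 57 held at most 0.342% of the counts of a library. Kif11 and Nek2 each had a transcript listed at 2 places with equal counts, and the copies were summed. CPM is relative to the library total. Tests used edgeR 4.0.16 (TMM factors, robust quasi-likelihood test, low counts filtered per comparison, Benjamini-Hochberg adjusted p below 0.05) in R 4.3.3, fitted over all genes within the 2 groups compared. The interaction and its contrast used all 12 libraries. SEs came from the fold change and its F statistic. DESeq2 1.42.0 and limma 3.58.1 on log2(TPM + 1) were alternatives, and scripts were tested on simulated data. For the common scale, library sizes were set to the summed member counts. Intervals on counts are exact Poisson at 95% and cover counting error only.

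The members and lists were chosen with earlier results of these data known. The genes given in full were a fixed panel of 14 (Mki67, Cdk1, Ccnb1, Plk1, Aurkb, Bub1b, Bub3, Kif11, Cenpa, Top2a, Birc5, Foxm1, Ube2c, Cdc25c), the 3 members with the highest and lowest mean percent of control in OTUB1_KD and in SFD@M, and the 3 smallest p-values per direction in the interaction and on the common scale. Other division genes were named if they rose or were among the 3 largest falls. Replicate numbers were not taken as pairs.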

Additional observations from a re-analysis of the deposited data

Results flagged for a closer look

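The change of 37 mitosis genes differed between the 2 experiments, at an adjusted p below 0.05 in edgeR. The interaction contrast tested the difference itself, with 1 spread per gene for 4 groups that differed in spread. Each value is the log2 change of OTUB1_KD against NC minus that of SFD@M against Blank, so that a positive value means the smaller fall in OTUB1_KD. Among entry regulators it was 3.12 for Cdk1, 4.15 for Ccnb1, 3.92 for Cdc25c and 3.46 for Plk1, and for the factor Foxm1 it was 3.39. Among checkpoint and kinetochore genes it was 2.33 for Bub1b, 0.70 for Bub3, 2.62 for Cenpa and 3.67 for Cenpe. For the motor Kif11 it was 2.69 and for Top2a 3.16, and both lost the call without any 1 NC or Blank library. Both also lost it without SFD@M replicate 2 and with a block for replicate number. Kif11 lost it as well without OTUB1_KD replicate 1 or SFD@M replicate 1. Passenger complex and furrow genes stood at 3.38 for Aurkb, 3.23 for Birc5 and 2.86 for Ect2. The APC/C genes stood at 3.78 for Cdc20 and 3.22 for Ube2c. All these values also hold the difference between Blank and NC, which fitted apart was 1.09 for Cdc20 and 0.75 for Plk1. Groups of 3 libraries were too small for a search for single outlying libraries.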

How the results depend on the processing

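The falling members numbered 37 in OTUB1_KD and 39 in SFD@M under every scaling, filter and tool tried with all libraries, and 27 to 37 and 39 to 39 without single libraries, with medians of -2.95 to -1.79 and -5.62 to -4.87. Blank against NC called 29 to 30 without single libraries and the interaction 28 to 39. The share of all genes called without single libraries was not recorded for these, nor on the common scale. Pttg1 in SFD@M against Blank reversed to -0.19 on log2(TPM + 1) and -0.19 on log2(TPM + 0.1). SFD@M against OTUB1_KD called 36 members with DESeq2 and 0 to 29 without single libraries. On the common scale in OTUB1_KD, 2 to 15 members departed without single libraries, 0 to 7 lower and 2 to 8 higher. In SFD@M the counts without single libraries were 14 to 30 in all, 10 to 22 lower and 4 to 8 higher. The geometric mean gave 6 in all and 2 lower, and shifted TMM factors gave 13 in all, 3 lower and 10 higher. The cause of these shifts was not tested. Same-numbered libraries of the groups compared correlated at -0.25 to 0.08 in their deviations, so the numbers were not taken to pair samples. With the replicate block, 37 and 39 members fell, 28 were called in the interaction, and 3 and 23 departed from the common scale. The lowest member counts in SFD@M replicate 1, 2 and 3 were 2, 11 and 7 reads, which limits the precision of Cdc25c there, and 3 libraries a group limit every test.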
